A study of Mus musculus with 12 samples.

Results

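The experiment described here is a low dose of bone morphogenetic protein 2 (BMP2) given for 1 day to a pre-osteoblast line from mouse skull bone, MC3T3 sc4. Its members are 4 of the 12 RNA-seq libraries of the study, chosen by their labels, and they form 2 matched pairs. In the first pair, cells with 10 ng/ml BMP2 were set against cells with vehicle. In the second, cells with 10 ng/ml BMP2 and 5 µM GSK126 were set against cells with 5 µM GSK126 alone. GSK126 inhibits EZH2, the histone H3 methyltransferase of Polycomb repressive complex 2. The labels give the strain as C57BL/6 and the cells as passage 12. All 4 cultures were in osteogenic medium, which holds ascorbic acid and β-glycerol phosphate, so each control was also under an osteogenic stimulus. Each condition is 1 library of 1 cell line, and nothing in the labels ties different libraries to separate cultures. P-values therefore measure only the spread between these libraries, which may be technical.

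BMP2 is a secreted ligand of the transforming growth factor beta (TGF-beta) family that binds type I and type II serine/threonine kinase receptors. The receptors phosphorylate SMAD1, SMAD5 and SMAD9, which enter the nucleus with SMAD4 and act on target genes, among them the Id genes and the genes of the pathway's own inhibitors. In cells of the osteoblast lineage BMP2 is best known for driving differentiation, through transcription factors such as RUNX2 and osterix (the product of Sp7) and, later, bone matrix proteins.

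The 4 libraries held 74301112 counts with vehicle, 86296742 with BMP2, 90932122 with GSK126 and 113744802 with both agents, so the library with BMP2 was the deeper of each pair. All counts above 0 were even numbers, as when both mates of a pair are counted, and low values are given below in read pairs, taken as the count over 2. Between 8.96% and 11.7% of counts fell on Rn45s, the precursor of ribosomal RNA. Of 11 mesenchymal and pre-osteoblast markers, 10 reached a mean of 1 CPM over the 4 libraries (CPM are counts scaled to a common library total). Their summed level was 52500 to 57400 CPM. Most of it came from the collagen genes Col1a1 and Col1a2, at 20110 and 24940 CPM with vehicle after the scaling described below. Alpl, which encodes the alkaline phosphatase of bone, was near 1 CPM without BMP2. Markers of most other cell types had low summed levels, and those of neural and epithelial cells are given further on. Cartilage and adipocyte genes are also given there, and of these the cartilage collagen gene Col2a1 was high, at 2519 to 4089 CPM. The 9 leukocyte markers summed to 8.75 CPM with vehicle and 7.9 with BMP2, and to 8.82 and 9.79 in the pair with GSK126, with Emr1 and Fcgr3 at 0 in all 4. The 6 endothelial markers summed to 0.727 to 1.62 CPM, and the 4 skeletal muscle markers to 3.27 to 4.06 CPM with Myod1 at 0.

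Differential expression was tested with edgeR's quasi-likelihood test on the 4 libraries, with a term for GSK126 and one for BMP2, over the 11529 genes that reached 1 CPM in at least 2 libraries. Levels are CPM after scaling by the trimmed mean of M-values (TMM), changes are log2 fold changes, and errors are standard errors of the fit over 2 pairs. A gene was called when its p-value, adjusted by the Benjamini-Hochberg method, was under 0.05 and its sign was the same in both pairs. By this rule 2043 genes were higher with BMP2 (17.7% of those tested) and 1899 were lower (16.5%). Most of these changes were small, since 69.7% of the called genes changed by under 1.2-fold in the fit. With scaling by library totals alone the split was 1386 higher and 2440 lower. At least 1.5-fold in each pair were 116 of the called genes higher (1.01%) and 109 lower (0.945%), and 32 higher and 17 lower reached 2-fold in each.

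The size rule is used below beside the test because the test on 4 libraries is lenient. It leaves 1 residual degree of freedom, and edgeR gave all genes of one level the same spread, so a gene's own disagreement between pairs does not enter its standard error. A fit on all 12 libraries, in which the pairs of day 6 also set the spread, called 49 genes higher (0.425%) and 31 lower (0.269%), all of them called in the fit on 4 libraries. In this wider fit 1394 genes had an unadjusted p under 0.05. Between the pairs the change differed by a standard deviation of 0.2 across genes on day 1 and of 0.38 on day 6. Of the 225 genes at least 1.5-fold in each pair, 31 of the 116 higher and 17 of the 109 lower passed in the wider fit, so changes named below without a wider value rest on the 4 libraries. Calls without 1 library come from a fit on the 6 libraries of day 1, in which those with 50 ng/ml BMP2 help to set the spread. They use the adjusted p-value alone, without the rule on signs. Of the 225, 12 of the higher and 15 of the lower genes reached 1 CPM only in libraries of the group where they were higher, so they had to differ in order to be tested. Just inside the size rule were Pik3cb (-0.588 and -0.678 in the pairs) and Sgsm2 (-0.588 and -0.736). Slc7a1 (0.614 and 0.584) and Tprn (-0.681 and -0.583) lay just outside it.

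**Figure D1:**
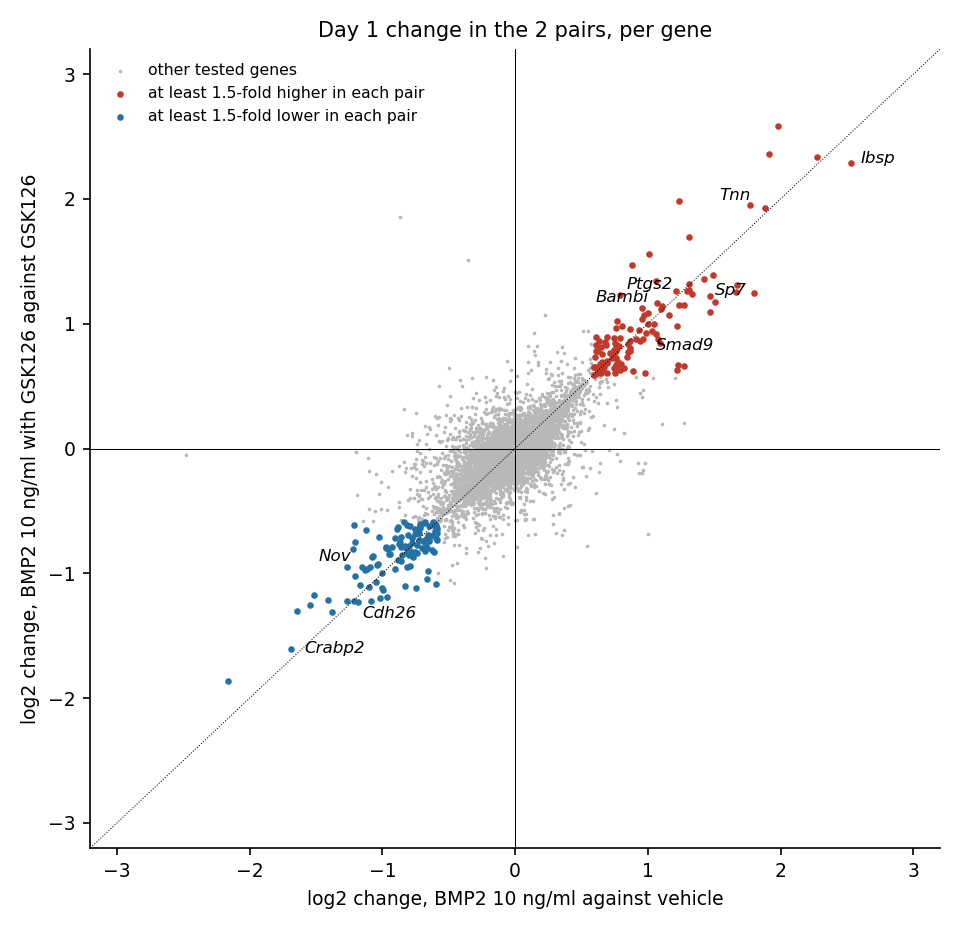
Log2 change with 10 ng/ml BMP2 on day 1 in the pair without GSK126 (horizontal axis) against the pair with GSK126 (vertical axis), 1 point per tested gene, with the dotted line marking equal changes. The 116 genes at least 1.5-fold higher in each pair and the 109 lower lie along the diagonal, and 4 of the 11529 genes fall outside the axes.

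Most tested genes of a list of BMP-SMAD targets were called higher. Of 30 listed BMP-SMAD target genes 27 were tested, of which 20 were called higher and 2 lower, against 17.7% and 16.5% of all genes. The median change of those tested was 0.39, against 0 over all tested genes. At least 1.5-fold in each pair were 11 higher, among them Hey1 described below, and 1 lower, and 4 higher passed in the fit on 12 libraries. The 3 untested members were Nog, Lefty1 and Prdm1. Each count of list members called higher or lower below stands against the same 17.7% and 16.5% of all genes. The lists, this one included, were chosen with earlier results of these data known, so such counts are a description.

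Among the targets, the genes of the inhibitory SMADs, which dampen the receptor signal, were higher with BMP2 in both pairs. Smad6 was at 53.3 CPM with vehicle, 90.6 with BMP2, 54.5 with GSK126 and 111 with both agents. It rose by 0.90 ± 0.03. Smad7 was at 44.3, 69.4, 37.5 and 66 CPM in the same order and rose by 0.73 ± 0.04, also in the fit on 12 libraries (adjusted p = 0.037). Smad9, a receptor-regulated SMAD whose gene is itself a BMP target, was at 23.1, 45.7, 24.6 and 46.7 CPM. Its rise of 0.95 ± 0.05 also passed on 12 libraries (adjusted p = 0.038). For all 3 genes both libraries with BMP2 lay above both without it. Bambi, a pseudoreceptor that blocks signalling, was lower in level, at 3.79, 8.2, 4.67 and 10.4 CPM, and rose by 1.13 ± 0.11 (adjusted p = 0.23 on 12 libraries).

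The 4 Id genes, which encode inhibitors of basic helix-loop-helix factors, did not move alike. Id1 was at 19.2 CPM with vehicle, 26.6 with BMP2, 20.4 with GSK126 and 29.8 with both, a rise of 0.51 ± 0.05. Id2 was at 30.4, 52.1, 32.3 and 52.4 CPM and rose by 0.74 ± 0.04. Id3 was at 133, 172, 137 and 179 CPM and rose by 0.38 ± 0.03, so only Id2 of these 3 reached 1.5-fold in each pair. Id4 was lower with BMP2, at 62.7, 35.4, 68.3 and 39.2 CPM, and fell by 0.81 on the log2 scale. None of the 4 passed in the fit on 12 libraries, where their adjusted p ranged from 0.17 for Id4 to 0.52 for Id3.

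Other rises among the targets were those of Atoh8, a basic helix-loop-helix factor gene (35.2, 55.3, 36.2 and 61.1 CPM, 0.71 ± 0.04), and of the homeobox gene Dlx2 (25.3, 42.7, 26 and 46.7 CPM, 0.80 ± 0.05). Skil and Klf10, which encode a SMAD co-repressor and a zinc finger factor, rose by 0.59 ± 0.03 and 0.65 ± 0.04, in both fits (adjusted p = 0.035 and 0.011 on 12 libraries). Hey1, a hairy-related repressor gene, had 3 read pairs with vehicle (95% Poisson interval 0.619 to 8.77), 74 with BMP2 (58.1 to 92.9), 24 with GSK126 (15.4 to 35.7) and 151 with both (128 to 177). It was called higher, but it passed the filter on low values only through the libraries with BMP2, and its fitted fold depends on the prior count. Msx1, Gata3, Tob1, Hhex and Bmper were not called.

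SMAD1 and SMAD5 bind GC-rich sites of the form GGCGCC in BMP-responsive elements, and that sequence was searched in the 250 bases before the start of each gene in the RefSeq promoter table (GRCm38.p6). A window was found for 8305 of the 11529 tested genes, and the most upstream start was used where there were several. GGCGCC is its own reverse complement, so 1 search covers both strands. It occurred in 17.6% of all windows, in 21.7% of the 69 windows of genes at least 1.5-fold higher in each pair and in 20.3% of the 69 of genes lower. Of the 20 BMP-SMAD targets with a window, 9 held it (45%): Id2, Smad9, Dlx2, Ski and Tcf7, which were called higher, Id4 and Grem1, which were called lower, and Gata3 and Hhex, which were not called. RUNX proteins bind TGTGGT, which occurred on either strand in 10.2% of all windows, 11.6% of the higher and 13% of the lower genes. The palindrome GTCTAGAC, a site of SMAD3 and SMAD4, was found in 0 of the windows of either group and in 0.144% of all. The homeodomain core TAATTA occurred in 2.01% of all windows, 2.9% of the higher and 1.45% of the lower genes. Shown next are 4 upstream windows that hold GGCGCC, from the targets Id2 and Smad9, from Ptgs2, which was called higher, and from Alpl. Alpl reached 1 CPM only in the libraries with BMP2, so it had to differ in order to be tested. Also shown is the window of Ibsp, the gene with the largest rise at a mean level of 5 CPM or more. It holds none of these motifs. Capitals mark GGCGCC and, in Ptgs2, also the reverse complement of TGTGGT just before it.
Id2, chr12:25096093-25096342, minus strand: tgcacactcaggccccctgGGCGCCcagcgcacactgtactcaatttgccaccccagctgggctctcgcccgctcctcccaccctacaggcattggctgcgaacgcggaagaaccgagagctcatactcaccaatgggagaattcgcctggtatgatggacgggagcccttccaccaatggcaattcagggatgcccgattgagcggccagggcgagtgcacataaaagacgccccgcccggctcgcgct
Smad9, chr3:54755332-54755581, plus strand: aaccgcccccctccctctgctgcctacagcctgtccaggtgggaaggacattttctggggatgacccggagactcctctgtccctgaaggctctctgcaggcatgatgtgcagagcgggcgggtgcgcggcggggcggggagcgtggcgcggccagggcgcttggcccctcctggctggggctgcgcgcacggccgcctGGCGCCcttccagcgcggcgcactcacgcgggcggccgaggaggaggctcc
Alpl, chr4:137796385-137796634, minus strand: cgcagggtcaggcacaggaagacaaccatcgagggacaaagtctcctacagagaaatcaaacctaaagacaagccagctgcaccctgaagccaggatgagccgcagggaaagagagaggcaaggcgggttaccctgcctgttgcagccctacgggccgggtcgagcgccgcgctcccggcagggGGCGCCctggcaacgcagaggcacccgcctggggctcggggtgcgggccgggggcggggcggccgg
Ptgs2, chr1:150099781-150100030, plus strand: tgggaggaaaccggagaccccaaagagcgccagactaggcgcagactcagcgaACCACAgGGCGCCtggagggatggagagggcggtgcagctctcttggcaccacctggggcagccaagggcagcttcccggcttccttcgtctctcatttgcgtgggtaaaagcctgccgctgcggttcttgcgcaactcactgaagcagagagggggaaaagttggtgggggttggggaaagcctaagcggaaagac
Ibsp, chr5:104299037-104299286, plus strand: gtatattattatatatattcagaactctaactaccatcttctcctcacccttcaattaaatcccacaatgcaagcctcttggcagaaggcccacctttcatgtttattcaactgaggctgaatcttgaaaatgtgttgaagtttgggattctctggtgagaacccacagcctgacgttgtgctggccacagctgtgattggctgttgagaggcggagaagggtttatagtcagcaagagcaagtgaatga
The match lies 231 bases before the start in Id2, 51 in Smad9, 66 in Alpl and 190 in Ptgs2, counted to its first base. A match is a description of the letters and shows no binding.

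Genes of the pathway's receptors, ligands and antagonists changed in both directions. Of 31 listed receptor, SMAD and ligand genes 20 were tested, with 7 called higher and 4 lower, against 17.7% and 16.5% of all genes. Their median was 0.03. The type I receptor genes Bmpr1a (134, 136, 136 and 133 CPM) and Acvr1 (69.1, 82.5, 72.3 and 83.7 CPM) changed by 0.00 ± 0.03, not called, and by 0.23 ± 0.03, called. Smurf2, a ubiquitin ligase that targets SMADs and receptors, rose by 0.49 ± 0.04, from 207 to 299 CPM and, with GSK126, from 208 to 284, also in the fit on 12 libraries (adjusted p = 0.023). Bmp4, the ligand gene most like Bmp2, was lower, at 38, 22.1, 49.4 and 29.1 CPM. It fell by 0.77 on the log2 scale and passed in both fits (adjusted p = 0.04 on 12 libraries). Gdf6 was at 1.03, 0.45, 1.31 and 0.667 CPM and reached the filter only through the libraries without BMP2. Bmp2 itself had 0 read pairs in all 4 libraries, where the floor of 3 read pairs allows up to 0.0527 to 0.0808 CPM.

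Of 19 listed BMP antagonists 12 were tested, with 3 called higher and 4 lower, against 17.7% and 16.5% of all genes. Grem1, for the secreted antagonist gremlin, was slightly lower with BMP2, at 64.1 CPM with vehicle, 57.5 with BMP2, 82.5 with GSK126 and 69.3 with both, a change of -0.21 ± 0.03. Chrdl1, a chordin-like antagonist, was at 220, 128, 262 and 148 CPM and fell by 0.80 on the log2 scale. Chrd and Fst, for chordin and follistatin, changed by -0.32 ± 0.08 and -0.30 ± 0.03, the former not called without the vehicle or the GSK126 library (adjusted p = 0.059 and 0.061). The noggin gene Nog had 26 read pairs with vehicle (interval 17 to 38.1), 40 with BMP2 (28.6 to 54.5), 36 with GSK126 (25.2 to 49.8) and 84 with both (67 to 104), below the filter, so it was not tested.

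Of the osteoblast transcription factors, Sp7 and Tcf7 were at least 1.5-fold higher in each pair and Osr1 lower. Sp7 was at 62.4 CPM with vehicle, 167 with BMP2, 69.8 with GSK126 and 179 with both, and rose by 1.39 ± 0.03 (2.63-fold, adjusted p = 0.058 on 12 libraries). Runx2, the factor that acts before it, was at 108, 118, 103 and 114 CPM, a change of 0.13 ± 0.03 (adjusted p = 1.8e-05, 0.74 on 12 libraries and 0.14 without the GSK126 library). Dlx5 was at 27.5, 33.3, 28.8 and 39.5 CPM and changed by 0.37 ± 0.05. Msx2 changed by 0.122 without and 0.626 with GSK126, and its call (adjusted p = 0.001) was lost when either the library with GSK126 or that with both agents was left out (adjusted p = 0.42 and 0.18). Of 22 listed factors 19 were tested, 9 called higher, 1 lower and 9 not called, against 17.7% higher and 16.5% lower of all genes. Their median was 0.11, and none was called in the fit on 12 libraries. Tcf7, a Wnt effector, rose by 0.91 ± 0.11, and Osr1, a zinc finger gene of early skeletal mesenchyme, fell by 0.72 on the log2 scale. Twist1 and Maf were among those not called. Dlx3 had 18, 25, 42 and 93 read pairs and was not tested.

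Among tested bone matrix genes the largest rise was that of Ibsp, bone sialoprotein, at chr5:104299287-104311472 (mm10). Ibsp was at 4.34 CPM with vehicle, 25.1 with BMP2, 8.05 with GSK126 and 39.5 with both agents. It rose by 2.39 ± 0.07, or 5.24-fold, in both fits (adjusted p = 0.038 on 12 libraries). Per gene length, in the authors' deposited RPKM, it was at 1.71 with vehicle and 10 with BMP2, far below Col1a1 at 3300 and 3450. Tnn, which encodes tenascin-W of bone and periosteum, was at 33, 122, 30.1 and 115 CPM and rose by 1.91 ± 0.03 (adjusted p = 0.099 on 12 libraries). Its relative Tnc was at 403, 833, 469 and 937 CPM and rose by 1.02 ± 0.03. Postn, for the matrix protein periostin, was at 1230, 2248, 1304 and 2241 CPM and rose by 0.83 ± 0.02. In all of these both libraries with BMP2 lay above both without.

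Markers of later osteoblast stages differed widely in level. Alpl had 36 read pairs with vehicle (interval 25.2 to 49.8), 98 with BMP2 (79.6 to 119), 35 with GSK126 (24.4 to 48.7) and 173 with both (148 to 201). It reached 1 CPM only in the libraries with BMP2, so it had to differ in order to be tested, and its counts are given as a description. Dmp1, a matrix phosphoprotein of osteocytes, was at 5.2, 11.1, 8.22 and 14.8 CPM and rose by 0.96 ± 0.09. Spp1, osteopontin, was at 672, 639, 879 and 815 CPM, a change of -0.09 ± 0.03 (adjusted p = 0.0021, 0.97 on 12 libraries and 0.19 without the GSK126 library). Its levels were higher in both libraries with GSK126 than in both without. The osteocalcin gene Bglap had 2, 5, 0 and 4 read pairs, near the floor of 3 pairs. Bglap and its near-identical neighbours may also share reads. Of 31 listed bone matrix and mineralization genes 23 were tested, 15 called higher and 3 lower, against 17.7% and 16.5% of all genes. Their median was 0.21, and 7, Alpl among them, were at least 1.5-fold higher in each pair. The 3 called lower were Spp1, Mgp and Fam20c. Col1a1, the main collagen of bone, was at 20110, 20710, 20400 and 21370 CPM, a change of 0.05 ± 0.004 that did not pass on 12 libraries (adjusted p = 0.9) or without either library with BMP2 (adjusted p = 0.13 and 0.19).

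Further large rises came from signalling genes. Cd244, known as a receptor of natural killer cells, was at 5.8 CPM with vehicle, 19.8 with BMP2, 4.54 with GSK126 and 17.7 with both. It rose by 1.87 ± 0.08 in both fits (adjusted p = 0.035 on 12 libraries). The summed leukocyte markers given above were lower with BMP2 in 1 pair and higher in the other. Of the 9 markers 3 were tested, and Csf1r (29, 49, 45 and 77 read pairs) was called higher. Csf1r reached 1 CPM only in the libraries with BMP2, so it had to differ in order to be tested. A part of leukocytes in the rise of Cd244 was not tested. Rgs4 and Rgs3 encode regulators that shorten G protein signals. Rgs4 was at 15.4, 43.2, 15.4 and 40.3 CPM and rose by 1.44 ± 0.05 (adjusted p = 0.066 on 12 libraries). Rgs3 was at 38.3, 94.9, 40.2 and 97 CPM and rose by 1.29 ± 0.03 (adjusted p = 0.029). Of 20 listed regulators 7 were tested, and Rgs17 was the other one called, at 0.18 ± 0.03. Both libraries with BMP2 lay above both without it for each of these 3 large rises.

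Ptgs2 encodes cyclooxygenase-2, the inducible enzyme of prostaglandin synthesis. It was at 60.8 CPM with vehicle, 151 with BMP2, 52.3 with GSK126 and 130 with both, nearly the same change in each pair (1.311 and 1.315). The rise of 1.31 ± 0.03 passed in both fits (adjusted p = 0.013 on 12 libraries). Pla2g4a, the phospholipase that frees its substrate, rose by 0.59 ± 0.03, while the related Ptgs1 changed by -0.14 ± 0.03 and the prostaglandin E synthase gene Ptges was not called (0.06 ± 0.03). Ptger4 and Ptger1, receptor genes for prostaglandin E2, changed by 0.49 ± 0.17 and -0.33 ± 0.06, though Ptger4 was not called with any 1 of the 4 libraries left out (adjusted p from 0.059 to 0.39). Of 18 listed prostaglandin genes 12 were tested, 4 called higher and 3 lower, against 17.7% and 16.5% of all genes.

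The remaining large rises were in matrix, vesicle and growth factor genes. Col15a1, a basement membrane collagen gene, was at 5.04, 14, 8.54 and 19.9 CPM and rose by 1.33 ± 0.08 (adjusted p = 0.011 on 12 libraries). Sytl2, for an effector of RAB27 in vesicle transport, was at 44.2, 94.6, 43.1 and 93.5 CPM and rose by 1.11 ± 0.03 (adjusted p = 0.011). Smoc2, for a secreted calcium-binding matrix protein, was at 3.9, 9.6, 4.86 and 11.7 CPM and rose by 1.28 ± 0.10 (adjusted p = 0.41). Igfbp5, for an insulin-like growth factor (IGF) binding protein of bone, was at 38, 79.8, 54 and 121 CPM and rose by 1.12 ± 0.03 (adjusted p = 0.3).

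**Figure D2:**
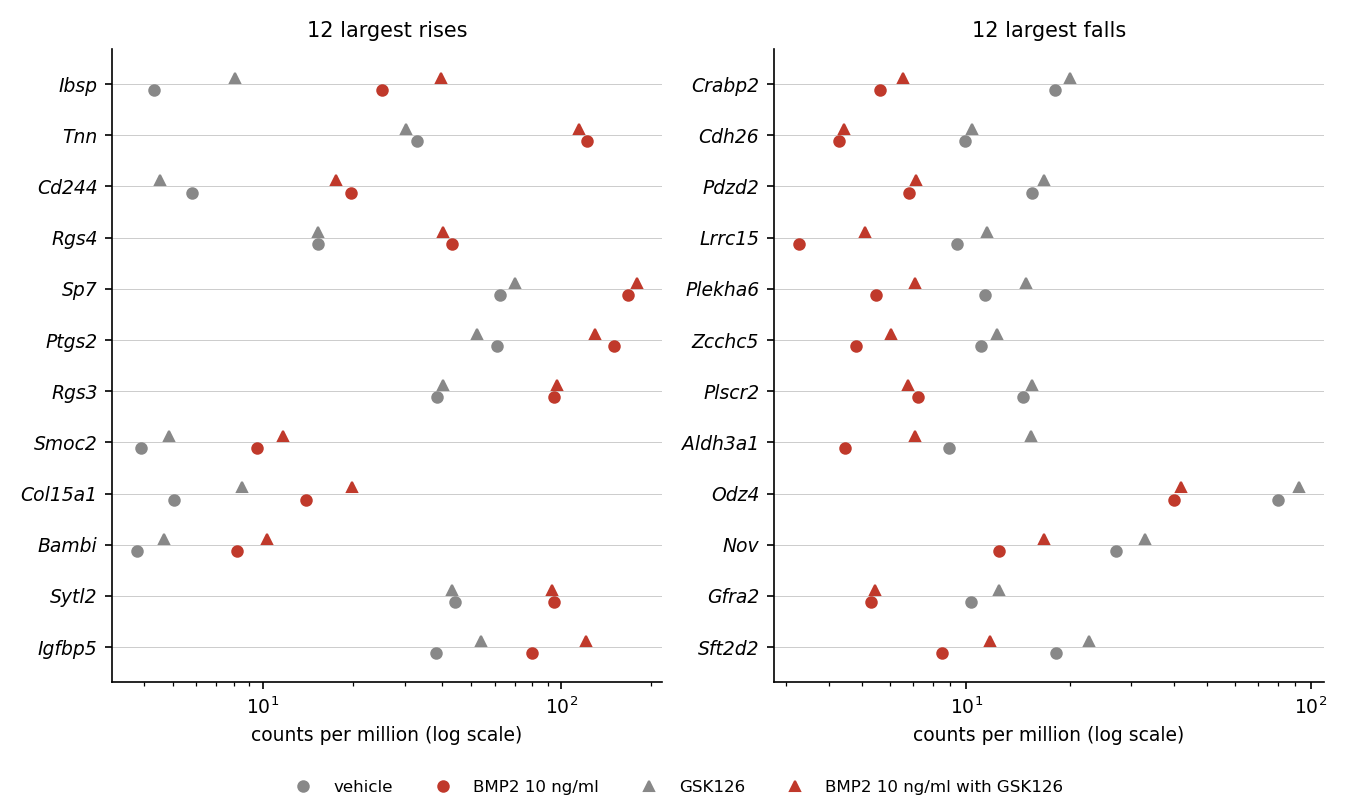
TMM-scaled CPM (log scale) of the 12 largest rises and the 12 largest falls with BMP2 10 ng/ml on day 1 at a mean level of 5 CPM or more, by the smaller of the changes in the 2 pairs. Circles are libraries without GSK126, triangles with it, grey without BMP2 and red with it, 1 library per point. For each gene both red points lie on the same side of both grey points.

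Of the falls at a mean level of 5 CPM or more, the largest was that of Crabp2, whose product carries retinoic acid to its nuclear receptors. Crabp2, at chr3:87948693-87953372 (mm10), was at 18.1 CPM with vehicle, 5.62 with BMP2, 20 with GSK126 and 6.54 with both. It fell by 1.65 on the log2 scale, to 3.13-fold less, in both fits (adjusted p = 0.016 on 12 libraries). Of 22 listed retinoic acid genes 10 were tested. Rara, Rxra and Dhrs9 were also called lower, each by less than 1.5-fold in at least 1 pair, and Rarg and Dhrs3 higher. The calls of Rxra (adjusted p = 0.058 without the vehicle library), Dhrs9 (0.56 without the GSK126 library) and Dhrs3 (0.35 without it) were lost when single libraries were left out. Cyp26b1, which degrades retinoic acid, was not called (0.04 ± 0.04).

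Several of the other large falls were of membrane protein genes. Lrrc15, a leucine-rich repeat membrane protein of mesenchymal cells, was at 9.4, 3.27, 11.5 and 5.09 CPM and fell by 1.33 on the log2 scale (adjusted p = 0.031 on 12 libraries). Cdh26, a cadherin gene, was at 9.92, 4.27, 10.4 and 4.44 CPM and fell by 1.22. Odz4, for the membrane protein teneurin-4, was at 79.9, 40.1, 92 and 41.9 CPM and fell by 1.07, and Gfra2, a receptor gene of the glial cell line-derived neurotrophic factor family, was at 10.4, 5.29, 12.5 and 5.46 CPM and fell by 1.09. Nov, which encodes the matricellular protein CCN3, was at 27.3, 12.4, 33 and 16.8 CPM and fell by 1.05 (adjusted p = 0.081 on 12 libraries). The 6 others of the 12 largest falls were Pdzd2, Plekha6, Zcchc5, Plscr2, Aldh3a1 and Sft2d2, with changes between -1.21 and -1.01. Of these, Zcchc5 and Sft2d2 passed on 12 libraries (adjusted p = 0.041 and 0.048).

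Genes of the related TGF-beta pathway were mostly higher. Of 23 listed ligands, receptors and targets 22 were tested, with 14 called higher and 3 lower, against 17.7% and 16.5% of all genes. The median was 0.16, and 4 higher and 1 lower were at least 1.5-fold in each pair. Ltbp2, for a latent TGF-beta binding protein, was at 11, 20, 11.1 and 19.4 CPM and rose by 0.84 ± 0.07, also on 12 libraries (adjusted p = 0.029). The type II receptor gene Tgfbr2 went the other way, at 187, 119, 211 and 128 CPM, and fell by 0.69 on the log2 scale.

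The Notch and Wnt lists did not move one way. Of 12 Notch genes tested 4 were called higher and 5 lower, against 17.7% and 16.5% of all genes. The 4 include Hey1, described above, which passed the filter only through the libraries with BMP2. Hes1, a Notch and BMP target, was at 14.6, 23.1, 15.8 and 25 CPM and rose by 0.66 ± 0.06, while the receptor genes Notch1 and Notch3 changed by -0.30 ± 0.05 and -0.34 ± 0.07, the latter not called without the GSK126 library (adjusted p = 0.072). Of 30 Wnt genes tested 6 were called higher and 10 lower, with a median of -0.05. The 6 include Notum (15, 49, 39 and 103 read pairs), which also passed the filter only through the libraries with BMP2. Lgr6, a receptor gene for R-spondins, was at 60.3, 114, 71.2 and 131 CPM and rose by 0.90 ± 0.03, and its ligand gene Rspo2 was at 44.2, 30.8, 49.2 and 33 CPM and fell by 0.55 on the log2 scale. Both passed in both fits (adjusted p = 0.044 and 0.031 on 12 libraries). Wnt4 rose by 0.66 ± 0.07, whereas Axin2, a common readout of Wnt signalling, was not called, at 2.11, 1.97, 2.72 and 2.63 CPM.

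In the IGF system 8 of 14 tested genes were called lower and 2 higher, against 16.5% and 17.7% of all genes. The median was -0.08, 1 lower and 1 higher were at least 1.5-fold in each pair, and 0 passed on 12 libraries. Igf1 was at 85.2, 48.7, 93.2 and 53.3 CPM and fell by 0.81 on the log2 scale, and Pappa2, a protease of IGF binding proteins, changed by -0.38 ± 0.04. Igfbp5, described above, and Igfbp7 were the 2 called higher. Collagen genes were divided, with 6 called higher, 7 lower and 9 not called of 22 tested and a median of 0. Among small leucine-rich proteoglycans 5 of 11 were called higher and 3 lower. Fmod, fibromodulin, was at 968, 1421, 1032 and 1418 CPM and rose by 0.51 ± 0.02, and Podn, podocan, was at 5.45, 2.56, 6.66 and 2.84 CPM and fell by 1.16 on the log2 scale (adjusted p = 0.03 on 12 libraries).

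Of 20 matrix proteases and inhibitors tested, 11 were called higher and 3 lower, against 17.7% and 16.5% of all genes. Their median was 0.22. Timp1, an inhibitor of metalloproteinases, was at 99.6, 147, 98.9 and 140 CPM and rose by 0.53 ± 0.03, also on 12 libraries (adjusted p = 0.029). Mmp13, collagenase-3, reached the filter through the libraries with BMP2 only, at 0.407, 1.59, 0.407 and 2.18 CPM, and was called higher. So did Pparg, the adipocyte nuclear receptor gene, with 14, 81, 20 and 128 read pairs, so its call supports no difference beyond these counts. The other 7 tested adipocyte genes did not follow it, with Plin4 and Zfp423 called lower and Cebpa, Cebpb, Cebpd, Plin2 and Dgat2 not called. Plin4 lost its call without the vehicle library (adjusted p = 0.13) and Zfp423 without the GSK126 library (adjusted p = 0.3) or that with both agents (0.14). Of 9 tested cartilage genes 4 were called higher and 0 lower. The 4 include Hapln1 (22, 90, 43 and 126 read pairs), which reached the filter only through the libraries with BMP2. Hapln1 therefore had to differ in order to be tested. Col2a1, type II collagen, was at 2519, 3460, 2929 and 4089 CPM and rose by 0.47 ± 0.01, and its regulator Sox9 was at 42.3, 59.1, 43.8 and 62 CPM and rose by 0.49 ± 0.04. Neither passed on 12 libraries.

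Most tested interferon-stimulated and antigen presentation genes fell with BMP2. Of 14 tested interferon-stimulated genes 11 were called lower and 0 higher, with a median of -0.32, and of 12 tested antigen presentation genes 8 were called lower and 0 higher, with a median of -0.37, against 16.5% of all genes called lower. At least 1.5-fold lower in each pair were 0 of the interferon-stimulated and 2 of the antigen presentation genes. Several of the former were low in level, with Oasl2, Isg15 and Bst2 at 1.545, 1.707 and 1.355 CPM with vehicle. Among the interferon-stimulated genes, Ifih1 lost its call without the GSK126 library (adjusted p = 0.082). Oasl2 (0.26), Isg15 (0.11) and Bst2 (0.22) lost theirs without that library too, and also without the library with both agents (0.1, 0.25 and 0.45). Oasl2 further lost it without the BMP2 library (0.067) and Bst2 without the vehicle library (0.079). H2-K1, a class I histocompatibility gene, was at 25.5, 16.9, 31.1 and 21.1 CPM and fell by 0.57 on the log2 scale, in both fits (adjusted p = 0.031 on 12 libraries). Psmb8 and Psmb10, for subunits of the immunoproteasome, fell by 0.61 and 0.70 on the log2 scale, to at least 1.5-fold less in each pair. Tapbp, tapasin, was at 173, 127, 185 and 135 CPM and fell by 0.45. Irf1, an interferon-responsive factor gene, was at 53.6, 41.8, 53.4 and 43.4 CPM and fell by 0.33. B2m, the partner chain of class I molecules, was not called (0.02 ± 0.03). H2-K1 was the only member of the 2 lists to pass on 12 libraries.

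Cell cycle and metabolic lists had medians near 0. Of 28 tested DNA replication and mitosis genes 4 were called higher and 8 lower, against 17.7% and 16.5% of all genes, with a median of 0. Mki67 was at 565, 577, 581 and 563 CPM and was not called, and the largest change was that of Rrm2, at 0.24 ± 0.03. Of 22 cholesterol synthesis genes 8 were called lower and 2 higher, none by 1.5-fold in each pair. Of 25 early response genes 13 were called higher and 3 lower, with a median of 0.20, among them Junb (0.59 ± 0.03) and Egr1 (0.37 ± 0.03). Of 7 tested osteoclast-regulating cytokine genes 3 were called higher and 3 lower, against 17.7% and 16.5% of all genes. Of these 6 calls, 4 were lost with single libraries left out, that of Il34 with any 1 of the 4 (adjusted p from 0.067 to 0.53), that of Lif without the vehicle library (0.16), that of Il11 without the vehicle (0.17) or the BMP2 library (0.14), and that of Ccl2 without the vehicle library (0.075), the GSK126 library (0.18) or that with both agents (0.22). Il34, called lower, also reached 1 CPM only in the libraries without BMP2, so it had to differ in order to be tested. Of 11 cyclin-dependent kinase inhibitor and related genes 2 were called higher and 3 lower, and of 14 stress response genes 6 and 3. Of 10 smooth muscle genes 6 were called lower and 1 higher, with Acta2 at -0.19 ± 0.02. Ezh2, the target of GSK126, was at 83.7, 90.9, 80.4 and 83.3 CPM, a change of 0.09 ± 0.03 with BMP2 (adjusted p = 0.0075, 0.71 on 12 libraries, and 0.11 to 0.41 without the vehicle, the BMP2 or the GSK126 library). Of the 11 tested Polycomb repressive complex 2 genes 1 was called higher and 1 lower.

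Single markers of other cell types moved with BMP2 too. The 4 neural markers summed to 47 CPM with vehicle, 73.5 with BMP2, 49.3 with GSK126 and 71.5 with both. Nearly all of this was Tubb3, which rose by 0.72 ± 0.04. The other tested neural marker, Mtap2, was lower with BMP2, at 5.39, 4.15, 6.06 and 4.61 CPM, a change of -0.39 ± 0.12 (adjusted p = 0.0056) that was lost without the vehicle library (0.14), the GSK126 library (0.11) or that with both agents (0.1). Sox10 and Gfap were not tested. The 6 epithelial markers summed to 7.03, 10.4, 9.11 and 13.5 CPM, nearly all from Krt14, with Krt18 at 0 in all 4. The part of such cells in the results was not tested, and in bulk samples fewer cells of a type cannot be told apart from less RNA per cell.

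**Figure D3:**
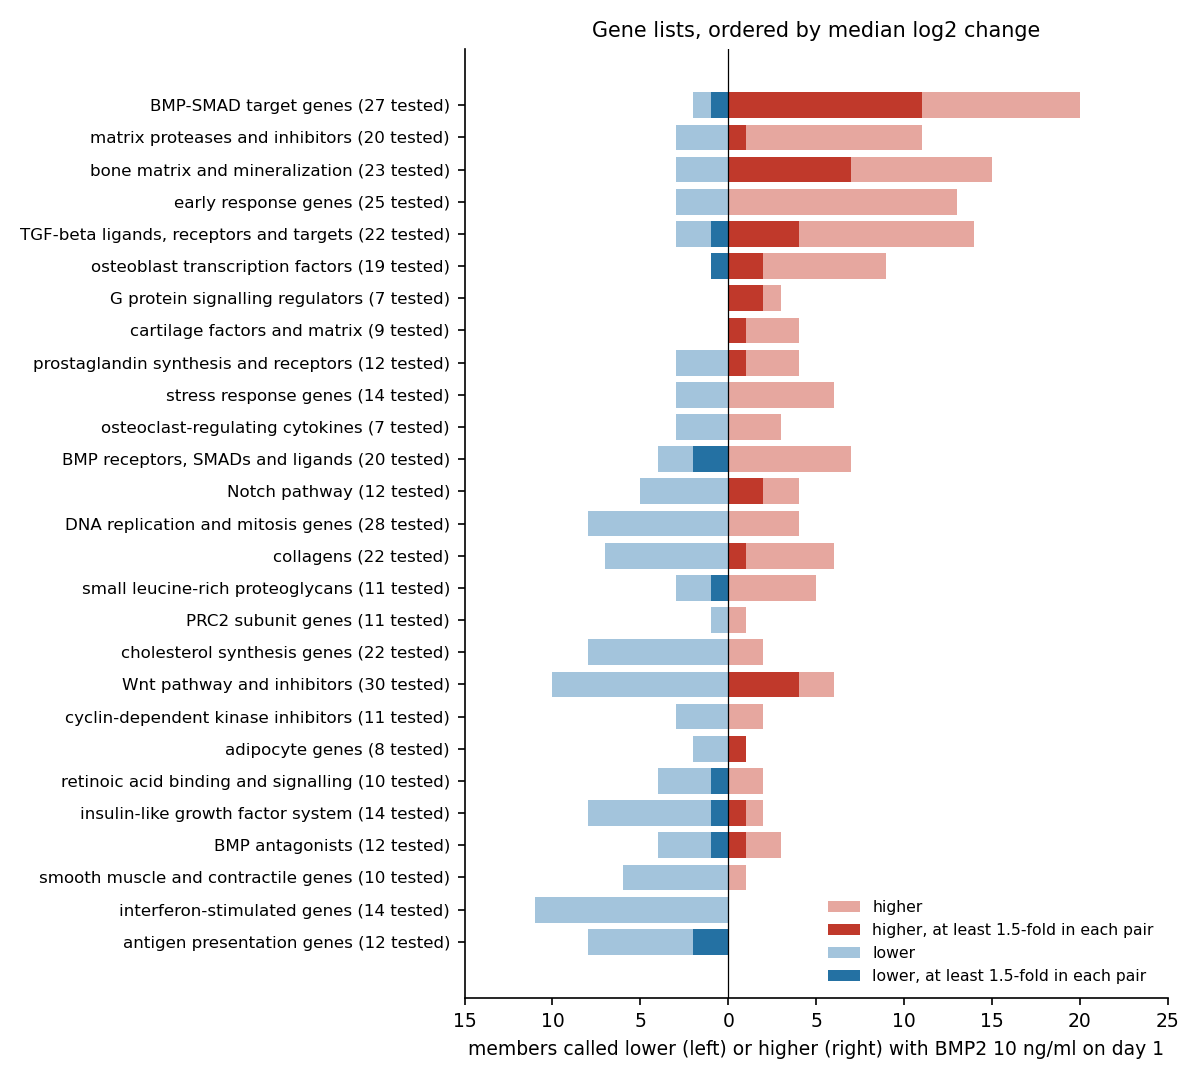
Members of each gene list, those of cell type markers left out, called lower (bars to the left) or higher (bars to the right) with BMP2 10 ng/ml on day 1, with dark bars for those at least 1.5-fold in each pair and the number tested in brackets, ordered by the list's median change. BMP-SMAD target genes stand at the top with 20 higher and 2 lower, and antigen presentation genes at the bottom with 0 higher and 8 lower.

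The median change with BMP2 was close in size without and with GSK126. Over the 116 genes at least 1.5-fold higher in each pair, the median change was 0.85 without and 0.86 with GSK126, and 54 of them changed more with it. Over the 109 lower genes the medians were -0.83 and -0.80, and 48 had the larger size with GSK126. These genes were chosen for agreement, so this is a description. Across all tested genes 74.3% had 1 sign in both pairs, and Pearson's r between the pairs was 0.68 across genes, which share their libraries and are not replicates. A difference between the pairs cannot be tested for single genes with 1 library per condition.

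A small set of genes went against the rule of agreement. In 33 genes the test passed although the pairs had opposite signs, and these were not called. Bsn had 195 read pairs with vehicle, 122 with BMP2, 229 with GSK126 and 1013 with both. Grn, progranulin, was at 321, 410, 437 and 270 CPM, a change of 0.353 without and -0.696 with GSK126. Cebpb, Ier5l and Spata5l1, which did not pass the test, had opposite signs at 0.22 or more in each pair and fitted changes near 0.

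At the higher dose of 50 ng/ml, also on day 1, the same genes were measured against the same 2 control libraries, so the doses are set side by side without a test. The median change of the 116 higher genes was 0.85 at 10 ng/ml, and 1.23 without and 1.13 with GSK126 at 50 ng/ml. For the 109 lower genes it was -0.82, against -1.16 and -1.05. Ibsp was at 32 CPM with 50 ng/ml and 46.5 with GSK126 added, against 25.1 and 39.5 at 10 ng/ml. For Tnn these levels were 248 and 225 against 122 and 115, and for Crabp2 3.54 and 4.44 against 5.62 and 6.54. Id3 was at 185 and 176 CPM against 172 and 179, and Smad9 at 50.3 and 48.1 against 45.7 and 46.7.

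The same dose on day 6 shares no library with day 1. Of the 116 genes higher on day 1, 67 were higher in both pairs of day 6 and 25 lower in both, with medians of 0.45 and 0.37. Of the 109 lower genes, 67 were lower in both and 20 higher in both, with medians of -0.48 and -0.29. No share over all tested genes is set beside these counts, so they only describe the chosen genes. Whether day 1 changes carried over to day 6 was not tested. The difference between the days was tested in a fit on the 8 libraries with 0 or 10 ng/ml BMP2 and 11962 genes. The effect was more positive on day 6 in 71 genes (0.594%) and more negative in 149 (1.25%), and 2381 genes had an unadjusted p under 0.05. Of the 116 higher genes 15 passed, and of the 109 lower genes 10. Each of them differed in the direction towards 0, which the choice of genes by their day 1 changes favours, since the same day 1 values enter the difference.

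These day differences depend on single libraries. With any 1 library of day 1 left out, 1 gene passed, and with any 1 of day 6 left out 3892 to 4606 did, because the spread then comes from the pairs of 1 day. Ednra, the endothelin receptor gene, changed by 0.81 ± 0.06 on day 1 and -1.80 ± 0.06 on day 6, a difference of -2.62 ± 0.09 (adjusted p = 0.0089). Postn changed by 0.83 ± 0.18 and -0.98 ± 0.18 (adjusted p = 0.049), and Rgs3 by 1.29 ± 0.11 and -0.24 ± 0.11 (adjusted p = 0.034). Crabp2 was lower on both days, by -1.65 ± 0.09 and -0.34 ± 0.08 (adjusted p = 0.03), and Bmp4 changed by -0.77 ± 0.08 and 0.14 ± 0.08 (adjusted p = 0.042). Ibsp (0.28), Sp7 (0.28), Ptgs2 (0.52) and Tnn (0.42) had adjusted p-values of the difference above the threshold, and Igfbp5, at 1.12 ± 0.31 and -2.04 ± 0.33, lay on it (0.05).

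**Figure D4:**
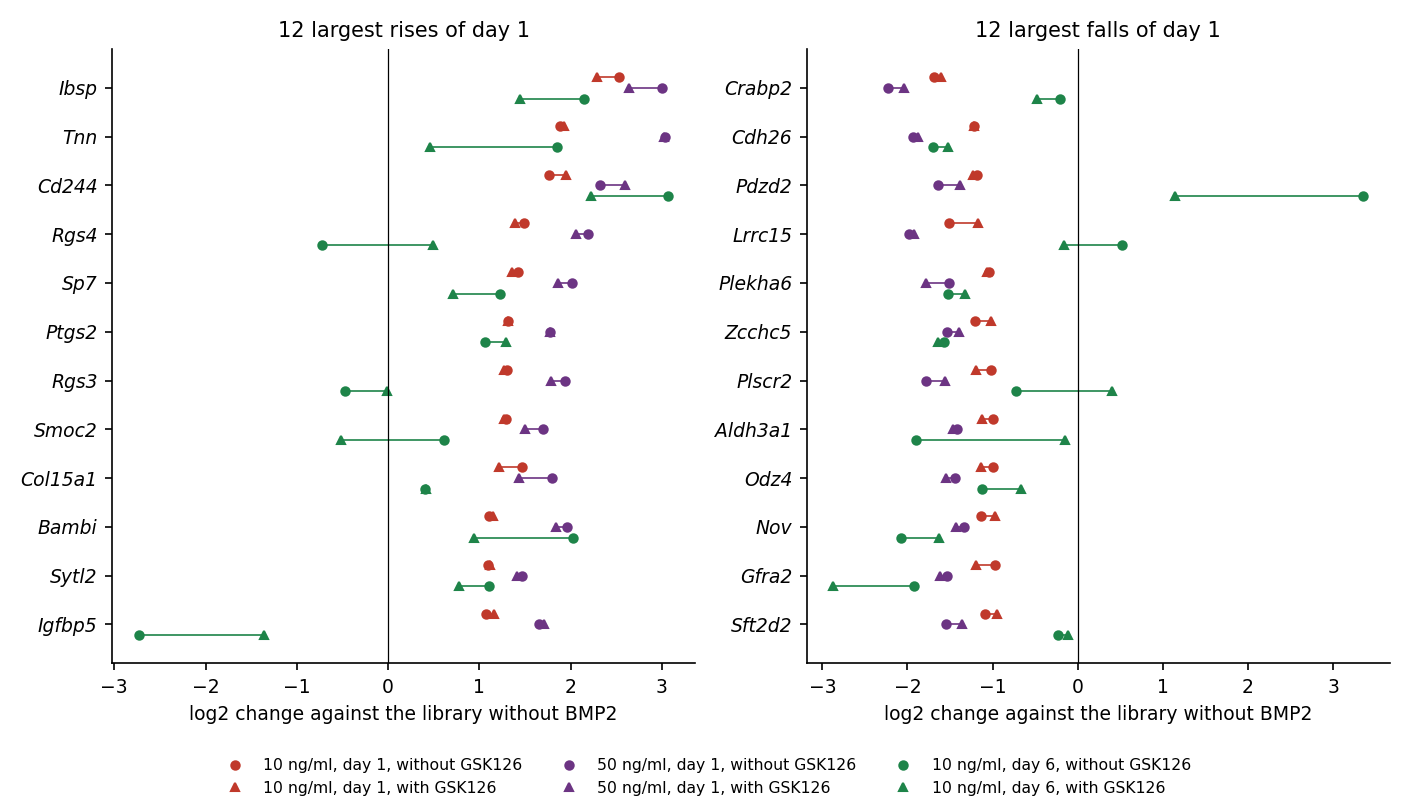
Log2 change with BMP2 against the library without it for the 12 largest rises (left) and falls (right) of day 1. Circles are pairs without GSK126 and triangles with it, 1 pair each, in red for 10 ng/ml on day 1, purple for 50 ng/ml on day 1 and green for 10 ng/ml on day 6. Igfbp5 is higher with BMP2 in both pairs of day 1 and lower in both of day 6, while Ibsp is higher in all.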

How the data were processed

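RNA was isolated with TRIzol and a Direct-zol kit and made into libraries with an Illumina mRNA kit, per the labels' protocols. The submitters' processing notes name mm10, bcl2fastq, TopHat2 2.0.6 and HTSeq; strand setting and annotation: not given in the sources used here, so overlapping and antisense genes cannot be told apart. The authors deposited gene counts and RPKM values, the latter scaled by gene length and library total, with a gene length column; RPKM is used only to compare levels between genes. Gene counts were used as deposited, without rows left out of the totals. Of 23358 rows, 69 share a name.

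Kept genes reached 1 CPM in 2 or more of the 4 libraries (11829 rows did not). They were TMM-scaled and tested with edgeR 4.0.16 (R 4.3.3; prior count 2). The day difference used the same test on 8 libraries with 2 residual degrees of freedom. A 3-pair floor was 0.0527 to 0.0808 CPM. Poisson intervals cover counting error only. Alternatives were DESeq2 1.42.0, limma-voom in limma 3.58.1, other scalings, filters and library sets, and each library left out; a robust setting of edgeR was added after the data were seen. The scripts were tested on simulated data. Named genes were up to 12 rises and 12 falls among called genes with a plain symbol and mean CPM of at least 5, ranked by the smaller pair change, a fixed panel, up to 4 called members per list, up to 6 day differences per direction and up to 5 genes whose pairs disagreed; other list members, such as Acvr1, Axin2 and B2m, were named after their values were seen. Genes and lists (33 lists, 596 genes, 419 tested) were chosen with earlier results of these data known. Some list members are counted but not reported by name here.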

Additional observations from a re-analysis of the deposited data

Results flagged for a closer look

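The effect of 10 ng/ml BMP2 differed between day 6 and day 1, in the fit on 8 libraries described above, for 26 named genes. Up to 6 per direction were named because they passed this test, so the number is partly set by the naming rule. Over all 11962 genes, 71 (0.594%) passed as more positive on day 6 and 149 (1.25%) as more negative. Cmya5, 1 of the 26, was below the filter of the day 1 fit on 4 libraries. The values that follow are day 6 minus day 1 differences of the log2 change (edgeR, adjusted p between 0.0089 and 0.049), and each carries the dependence on single libraries given there. Differences above 1 and positive were those of Mgst3 (1.93), Rhpn2 (1.79), Cmya5 (1.59), Crabp2 (1.3), Lgals3 (1.3) and Dmpk (1.22). Smaller positive ones were those of Bmp4 (0.91), Sft2d2 (0.84) and Timp1 (0.6).

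The most negative difference was that of F13a1 (-4.19), whose level without BMP2 went from under 1 CPM on day 1 to 406 and 270 CPM on day 6. Ednra (-2.62), Chst2 (-2.54), Sned1 (-2.37), Gas6 (-2.27) and Itga8 (-2.15) followed. Matrix and signalling genes were Postn (-1.8), Aspn (-1.67), Rgs3 (-1.53), Igfbp4 (-1.17), Adamts4 (-1.12), Col15a1 (-0.93) and Col16a1 (-0.91). The others were Tm7sf2 (-1.11), Zfp423 (-0.8), Cdkn2c (-0.72) and Bub1 (-0.55).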

How the results depend on the processing

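For the day 1 effect 3942 genes were called in all. The count was 1727 with DESeq2, 939 without the GSK126 term, 80 in the fit on 12 libraries, 225 with at least 1.5-fold in each pair and 49 with at least 2-fold. Leaving out 1 library in a fit on the 6 libraries of day 1 gave 1810 to 3050, the lowest without the vehicle library and 2214 without the GSK126 library. These counts with 1 library left out rest on the adjusted p-value alone, without the rule on signs that the main count holds. With library totals, other filters, limma-voom, halved counts, 6 libraries or the robust setting the count stayed within 1.5 times. Of the 225 genes, 195 were called by DESeq2, 224 by limma-voom, 48 on 12 libraries and 190 without the GSK126 term. No named gene reversed. For the difference between days 220 genes passed, 827 with DESeq2, 307 with library totals, 225 in the fit on 12 libraries and 1 to 4606 with 1 library left out. The fit on 4 libraries already holds the pairing, as its GSK126 term. Depth limits genes near the floor, such as Bglap, Nog and Dlx3.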

Other observations

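A handful of genes had counts in 1 library of the 4 far from the other 3, and their values are given here without explanation. Fam132a had 41015 read pairs in the library with 10 ng/ml BMP2 alone and 634 to 1035 in the other 11 libraries. Prkra had 4721 in the vehicle library of day 1 and 755 to 1377 in the other 11, and Limd2 had 2605 in that same library and 322 to 1815 elsewhere. Both genes met the rule for a fall with BMP2, by -2.476 and -1.197 in the pair without GSK126 and by -0.053 and -0.024 in the pair with it.

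Tmem158 was split in an all-or-nothing way. It had 65, 73 and 87 read pairs in the day 1 libraries with vehicle, 10 ng/ml BMP2 and GSK126, and 38653 to 60089 in all 9 others, among them 49260 in the day 1 library with 10 ng/ml BMP2 and GSK126. At a mean of at least 5 CPM, 8 genes differed between the pairs by more than 1 on the log2 scale. The other 4 were Aldh2, Flot1, Grn and Bsn. For Aldh2 and Flot1 the library with 10 ng/ml BMP2 alone was the highest of the 6 of day 1, at 421 CPM against 190 to 239 and at 106 against 43.3 to 60.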
